A study of Mus musculus with 136 samples.

Results

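The genes described here are 44 genes of proliferation and the cell cycle, whose products copy DNA, supply its building blocks or carry a cell through division. Every probe annotated to them was taken, whatever its values. A probe was found for 40 of the 44 genes, and these had 66 probes among the 25697 probes of the array, which cover 16593 genes with a symbol. *Ccnb1*, *Aurkb*, *Racgap1* and *Mki67* were not matched to a probe and were not analysed here. Of the 40 genes, 34 could be tested in the spleen, and these 34 carry the description below.

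The expression arrays (Illumina MouseRef-8) measured RNA of the spleen, thyroid, lungs, liver, kidney cortex and kidney medulla of female BALB/c nude mice aged 9 months. The mice received 90 kBq 131I, a radioactive iodide that emits beta particles and gamma rays, or physiological saline, intravenously at 9:00, 12:00 or 15:00, and the tissues were excised 24 h later. There were 12 mice with 131I and 10 with saline, and they gave 71 tissue samples with 131I and 59 with saline in 36 groups of 3 or 4. All mice, those with saline included, carry the nude mutation of *Foxn1* and lack a thymus, so that no group had a full T cell compartment. Each experimental group had a cage of its own, and cage and group cannot be told apart. The 6 tissues came from the same mice and are not independent of each other.

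Cell division is run by a program of genes that is largely silent in resting cells. E2F factors switch on the genes of DNA replication when a cell enters S phase, and FOXM1 with its partner factors switches on the genes of mitosis later in the same cycle. The promoters of many of these genes carry CCAAT boxes, bound by NF-Y, and a cell cycle homology region (CHR) that holds them silent in resting cells through the DREAM complex. The mouse spleen keeps on forming blood cells in adult life, mainly red cells in its red pulp, and houses dividing B cells in its follicles, whereas most cells of the adult liver, kidney and thyroid are at rest.

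Promoters of 6 genes are shown as examples. Whether their motifs have a part in the levels described below was not tested. They are RefSeq sequences of the build GRCm38.p6, from 120 bases before the first listed start site to 50 bases after it. *Cdc20*, *Aurka* and *Kif11* act in mitosis, *Mcm6* in replication, and *Rrm1* and *Tyms* in nucleotide supply. Capitals mark the matches to 5 motifs searched on both strands, namely the CCAAT box, which reads ATTGG when it lies on the other strand, the CHR form TTTGAA, which then reads TTCAAA, the CHR form TTTAAA, which reads the same both ways, the E2F form TTGGCGC, which then reads GCGCCAA, and the E2F form TTCGCGC, which then reads GCGCGAA.
Cdc20 (chr4:118437294-118437463, minus strand): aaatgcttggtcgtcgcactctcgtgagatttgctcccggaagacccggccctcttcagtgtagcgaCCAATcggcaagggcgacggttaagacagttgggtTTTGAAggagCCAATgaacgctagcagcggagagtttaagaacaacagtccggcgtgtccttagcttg
Aurka (chr2:172370521-172370690, minus strand): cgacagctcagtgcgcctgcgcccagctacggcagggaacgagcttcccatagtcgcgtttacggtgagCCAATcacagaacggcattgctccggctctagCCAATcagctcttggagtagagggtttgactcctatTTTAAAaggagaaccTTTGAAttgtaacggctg
Kif11 (chr19:37376262-37376431, plus strand): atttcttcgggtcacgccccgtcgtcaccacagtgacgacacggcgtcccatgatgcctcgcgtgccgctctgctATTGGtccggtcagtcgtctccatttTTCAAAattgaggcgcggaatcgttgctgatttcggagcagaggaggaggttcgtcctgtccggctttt
Mcm6 (chr1:128359656-128359825, minus strand): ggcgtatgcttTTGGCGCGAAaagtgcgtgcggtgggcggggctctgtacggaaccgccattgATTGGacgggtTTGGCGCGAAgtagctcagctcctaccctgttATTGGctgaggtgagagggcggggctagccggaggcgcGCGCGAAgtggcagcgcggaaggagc
Rrm1 (chr7:102441575-102441744, plus strand): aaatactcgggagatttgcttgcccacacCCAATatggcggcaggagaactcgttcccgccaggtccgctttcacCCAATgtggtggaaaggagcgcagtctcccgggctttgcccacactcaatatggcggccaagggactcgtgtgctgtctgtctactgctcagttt
Tyms (chr5:30073576-30073745, minus strand): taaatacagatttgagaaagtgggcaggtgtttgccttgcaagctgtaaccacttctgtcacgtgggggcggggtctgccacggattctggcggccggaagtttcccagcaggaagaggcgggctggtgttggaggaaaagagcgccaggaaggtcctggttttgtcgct
The promoter of *Cdc20* held 2 CCAAT boxes and 1 CHR form in this stretch, and that of *Aurka* held 2 of each. *Kif11* had 1 of each, and *Mcm6* had 2 CCAAT boxes and 5 E2F matches, of which 2 pairs overlap. *Rrm1* had 2 CCAAT boxes, and *Tyms* had none of the 5 motifs. Over the whole window of 300 bases (250 before and 50 after the start), a promoter was at hand for 36 of the 44 genes. A CCAAT box stood in 29 of these 36 promoters (80.6%), against 37.4% of all 32851 mouse promoters of the same length. The 36 are 1 promoter a gene, the first listed, whereas the 32851 are all listed promoters, those of the 36 genes included. A CHR form stood in 26 (72.2%, against 27.6% of all), both together in 23 (63.9%, against 10.7%) and an E2F form in 9 (25%, against 3.89%). A match to letters does not show a bound site.

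Above background means a detection p under 0.01, which held for 34.7% to 51.9% of the 25697 probes of an array. Between 30 and 35 of the 40 genes were above background on a spleen array (median 34), against 5 to 13 on a thyroid array (median 8), 14 to 27 in the lungs (20), 7 to 13 in the liver (9), 9 to 18 in the kidney cortex (13) and 10 to 21 in the kidney medulla (14). *Bub1*, *Ccnb2*, *Cenpe*, *Ect2* and *Kif20a* were not above background on any spleen array, *Hmmr* was on only 2, and these 6 genes were not tested in the spleen. In the spleen 51 probes of 34 genes were tested among 13184 probes in all.

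Some samples went against their labels. The spleen labelled 131I 12:00 replicate 1 had 19 of 19 kidney markers above background, against 1 to 3 in the other spleens, and its B cell markers averaged 8.13 on the log2 scale, against 9.18 to 10.38. Its mean over the 34 genes was the lowest of all spleens (7.09), so the spleen results that it moves are given with and without it. The lung sample labelled saline 9:00 replicate 4 had 17 of 19 kidney markers above background, against 2 to 6 in the other lungs. In the remaining spleens 10 of 11 B cell markers were above background on every array. In the samples labelled thyroid, 8 of 9 markers of thyroid follicular cells were above background on no array. Salivary gland markers and skeletal muscle markers differed strongly among these samples, as given below beside the results of that tissue.

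The first comparison asked how the level of the genes in the spleen stands against the other tissues, in saline mice. The spleen held far more RNA of nearly all of them, from the replication helicase to the genes of cytokinesis. Between the spleen and the other 5 tissues the median of the 34 genes differed by 3.28 on the log2 scale for thyroid (9.74-fold), by 2.88 for lungs (7.38-fold), by 3.21 for liver (9.27-fold), by 2.86 for kidney cortex (7.25-fold) and by 2.99 for kidney medulla (7.92-fold). The median over all 16587 probes lay between 0.00 and 0.08. These sizes depend on the background correction. Over the 52 probes of the genes the medians were 2.52 to 2.82 with it, but 1.31 to 1.49 without it and 1.33 to 1.53 in the normalized values of the authors. Where a gene was at background in the other tissue its fold-change is only a lower bound, which was so for 5 genes (lungs) to 18 genes (thyroid), and the medians with these bounds were 2.70, 2.68, 2.47, 2.80 and 2.84 for thyroid, lungs, liver, kidney cortex and kidney medulla. In RNA of a whole tissue, more cells of a dividing type and more RNA per cell cannot be told apart.

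To be called, a probe needed a fold-change of at least 1.5 and, in limma, an adjusted p under 0.01 (Benjamini-Hochberg, over all probes tested). By this rule 46 of the 52 probes of the genes were higher in the spleen (10 samples) than in the thyroid, where 27.8% of all probes were, and none was lower. Against the lungs 48 were higher (23.3% of all probes), against the liver 46 (31.1%), against the kidney cortex 46 (27.4%) and against the kidney medulla 47 (26.8%), and none was lower. Each of the 34 genes was higher than in the lungs, the liver, the kidney cortex and the kidney medulla, and 33 were higher than in the thyroid. These counts lean on the choice of genes, since the 34 are those above background in the spleen. *Cdca8*, *Ube2c*, *Ccna2* and *Ccne2* were above background on no array of another tissue, and *Kif11* was on only 1. Further probes of *Cdc6*, *Mcm4*, *Mcm6*, *Birc5*, *Cdc20*, *Rrm2* and *Nusap1* were above background on fewer than 3 arrays outside the spleen. All these probes entered the tests only through the spleen and could hardly have been lower there. In 28 of the 34 genes the lowest saline spleen lay above the highest saline sample of any other tissue. The other 6, with overlap, were *Gmnn*, *Pcna*, *Ccne1*, *Ccne2*, *Tk1* and *Tyms*. The share of all probes that lie apart in this way was not computed, so how unusual this count is stays unknown. Further probes of *Cdc20*, *Cdk1*, *Cdc6*, *Mcm4*, *Tk1* and *Tyms* differed less and were not called in at least 1 tissue.

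**Figure D1:**
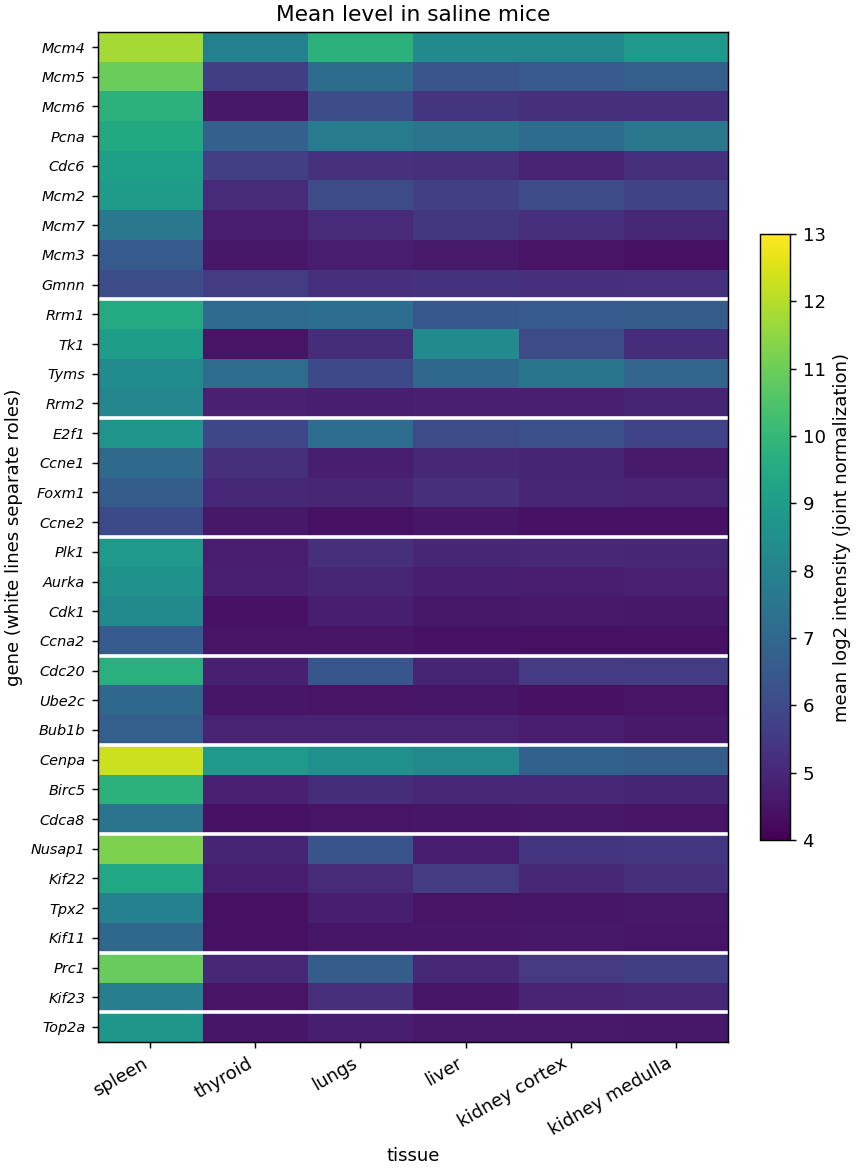
Mean log2 intensity of the 34 genes (rows, grouped by role) in saline samples of the 6 tissues (columns), with all arrays normalized together. The spleen column is brighter (higher) than the others in every role group, while *Gmnn* and *Tyms* show the smallest contrast (mean difference over the 5 tissues 0.70 and 1.33).

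DNA replication was led by *Mcm5*, a subunit of the helicase that unwinds DNA at the replication fork. Its log2 intensity was 10.19, 10.96 and 12.38 in the 10 saline spleens (lowest, median, highest), against at most 7.73 in any saline sample of another tissue, a lung. It was 39.3-fold higher in the spleen than in the thyroid, 13.2-fold than in the lungs, 23.3-fold than in the liver, 21.2-fold than in the kidney cortex and 18.6-fold than in the kidney medulla (adjusted p = 1.26e-21 or less). *Gmnn*, which encodes geminin, the brake on a repeated licensing of origins, differed least of all genes. It stood at 5.54, 5.98 and 7.36 in the spleen, against 4.75, 5.52 and 6.74 in the thyroid, and these ranges overlap (difference 0.39, SE 0.18, adjusted p = 0.0501). Against the lungs, liver, kidney cortex and kidney medulla *Gmnn* was 1.74-fold, 1.63-fold, 1.78-fold and 1.71-fold higher (adjusted p between 6.76e-05 and 0.000511).

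In nucleotide supply *Rrm2*, the regulated subunit of ribonucleotide reductase, stood at 6.57, 8.28 and 9.79 in the spleen, against at most 5.79 elsewhere. It was 9.63-fold higher than in the thyroid, 10.1-fold than in the lungs, at least 5.26-fold than in the liver, 9.84-fold than in the kidney cortex and 8.85-fold than in the kidney medulla (adjusted p = 1.39e-19 or less). *Rrm2* was above background on only 2 of 23 thyroid, 1 of 22 kidney cortex and 3 of 23 kidney medulla arrays, 131I included. *Tyms*, thymidylate synthase, was well measured in all tissues. Its spleens of 7.10, 8.62 and 9.80 overlapped with kidney cortex at 7.30, 7.42 and 7.74. The spleen was 4.91-fold above the lungs for *Tyms* (adjusted p = 4.76e-17) but only 1.70-fold above the kidney cortex (adjusted p = 6.81e-05).

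For entry into S phase and its transcription, *E2f1*, the activating E2F factor, stood at 8.02, 8.72 and 9.75 in the spleen, and the nearest sample elsewhere was a lung at 7.94. It was 6.69-fold, 2.59-fold, 5.82-fold, 5.33-fold and 6.98-fold higher than in thyroid, lungs, liver, kidney cortex and kidney medulla (adjusted p = 8.27e-11 or less). *Ccne2*, a partner cyclin of CDK2, was above background in 8 of 10 saline spleens and in no saline sample of the other tissues. Its spleens ran from 4.74 over a median of 5.86 to 7.64, against at most 5.21 elsewhere, a thyroid sample. It was at least 1.12-fold to at least 1.87-fold higher. *Ccne2* entered the tests through the spleen alone, so its direction was nearly fixed in advance and no p is given.

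Mitotic entry was led by *Plk1*, the polo kinase, at 7.48, 8.90 and 9.76 in the spleen, against at most 5.82 elsewhere. Its difference was 11.6-fold for lungs, 13.5-fold for kidney cortex and 14.0-fold for kidney medulla, and at least 8.09-fold for thyroid and 8.58-fold for liver (adjusted p = 4.94e-25 or less). *Plk1* was above background on only 3 of 22 kidney cortex and 2 of 23 kidney medulla arrays, 131I included. *Ccna2*, cyclin A2, stood at 5.54, 6.38 and 8.51, against at most 5.02 elsewhere, and was at least 1.73-fold to at least 2.88-fold higher. Of the checkpoint and anaphase genes, *Cdc20*, the activator of the anaphase-promoting complex, stood at 8.68, 9.83 and 10.69, against at most 7.52 elsewhere, and was 17.6-fold above the kidney cortex and 9.36-fold above the lungs. *Bub1b*, a kinase of the spindle checkpoint, stood at 5.90, 6.70 and 7.82, against at most 5.69, and was 3.54-fold above the lungs (adjusted p = 7.37e-16). It was above background on only 6 of 22 lung arrays, 131I included.

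At the centromere and in the passenger complex *Birc5*, which encodes survivin, stood at 8.06, 9.86 and 11.21 in the spleen, against at most 5.82 elsewhere, and was 22.6-fold to 26.7-fold above lungs, liver, kidney cortex and kidney medulla. *Birc5* was above background on only 1 of 23 liver, 3 of 22 kidney cortex and 3 of 23 kidney medulla arrays, 131I included. *Cdca8*, borealin, of the same complex, stood at 6.25, 7.64 and 8.23, against at most 5.08. It was at background in each other tissue, so that its fold-change was at least 3.16 (thyroid) to at least 5.26 (lungs). *Top2a*, the topoisomerase that untangles chromosomes, stood at 7.45, 8.75 and 10.25, against at most 5.12, and was 15.2-fold above the lungs. It was above background on only 8 of 22 lung arrays, 131I included.

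The largest differences of all were those of *Nusap1*, which binds spindle microtubules, and *Prc1*, which bundles microtubules in the midzone before cytokinesis. *Nusap1* stood at 9.76, 11.17 and 12.41 in the spleen, against at most 7.63 elsewhere. It was 76.0-fold higher than in the thyroid, 27.6-fold than in the lungs, 54.3-fold than in the kidney cortex, 53.1-fold than in the kidney medulla and at least 44.5-fold than in the liver (adjusted p = 2.81e-26 or less). *Prc1* ranged over 9.12 to 11.91, against at most 7.57, and was 17.6-fold (lungs) to 58.2-fold (thyroid) higher. In the thyroid *Nusap1* was above background on only 3 of 23 arrays and *Prc1* on 4 of 23, 131I included. The fold-changes of both genes against the thyroid thus rest mostly on background values. The smallest differences of these groups were those of the motor *Kif11*, at 5.56, 7.15 and 8.22 in the spleen against at most 4.87, and of the cytokinesis motor *Kif23*, at 6.32, 7.80 and 9.10 against at most 5.74 (5.88-fold above the lungs).

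The same contrast was read from 52 tested genes of the cell cycle outside the list, drawn from a list of 72. Of these, 43 were higher in the spleen than in the thyroid, 42 than in the lungs, 44 than in the liver, 42 than in the kidney cortex and 43 than in the kidney medulla, and 2 or 3 were lower. Beside them stood the blood cell markers of the spleen. All 10 tested B cell markers were higher in the spleen than in each other tissue, and 9 to 11 of 12 markers of red cell precursors were. So were all 10 T cell markers, and 7 or 8 of 8 markers each of megakaryocytes and splenic macrophages. Of 15 markers of neutrophil precursors 8 were higher than in the lungs, and 14 or 15 than in the other tissues. Against the lungs 1 megakaryocyte marker and 1 neutrophil marker were lower. How far the cell types of the spleen account for the levels of the genes was not tested.

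The next question was whether the genes of the spleen differ between 3 times of day without 131I. In saline spleens taken after injection at 12:00 and at 15:00 all 51 probes lay below their level of 9:00, on average, but no gene passed the test. The mean log2 intensity of the 34 genes was 9.13, 8.78, 9.35 and 9.95 in the 4 saline spleens of 9:00, then 8.25, 8.29 and 8.91 in the 3 of 12:00, and 8.36, 7.64 and 8.71 in the 3 of 15:00. The spleens of 15:00 were thus all below those of 9:00, and those of 12:00 overlapped with 1 of the 4.

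**Figure D2:**
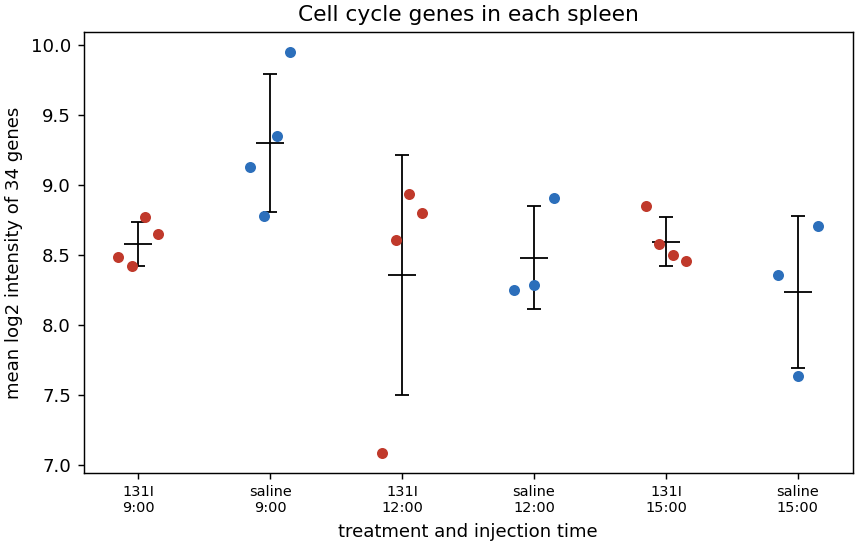
Mean log2 intensity of the 34 genes in each spleen (points), with the group mean and SD (bars), for 131I (red) left of saline (blue) at 9:00, at 12:00 and at 15:00. The lowest point is 131I 12:00 replicate 1 (7.09), which carries kidney markers, and the highest is saline 9:00 replicate 4 (9.95).

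Between 12:00 and 9:00 the median gene differed by -0.83 on the log2 scale (range -1.36 to -0.38), and between 15:00 and 9:00 by -1.07 (range -1.57 to -0.56). The median over all probes was 0.03 in both. At an unadjusted p under 0.05, 26 of 51 probes were lower at 12:00 (3.94% of all probes) and 45 of 51 at 15:00 (4.19% of all). The groups did not overlap in 12 probes for 12:00 (3.03% of all) and in 28 for 15:00 (3.67% of all). The smallest adjusted p among the probes of the genes was 0.672 for 12:00 and 0.364 for 15:00. In the F test over the 3 times 34 of 51 probes had an unadjusted p under 0.05 (6.45% of all) and none passed (smallest adjusted p = 0.642), while 1 of 13184 probes did (0.00758%).

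The count at an unadjusted p leans on single spleens. It was 26 for 12:00, but 4 without saline 9:00 replicate 4, 6 without saline 12:00 replicate 1, 8 without saline 12:00 replicate 2 and 35 without the 131I spleen with kidney markers (6.11% of all probes then). For 15:00 it was 45, but 14 without saline 15:00 replicate 2 and 23 without saline 9:00 replicate 4, and 47 without the spleen with kidney markers (5.71% of all). For the F test it was 34, but 11 without saline 9:00 replicate 4, 16 without saline 15:00 replicate 2 and 45 without the spleen with kidney markers (11.6% of all). In each of these fits at least 50 of 51 probes stayed lower at 12:00 and at 15:00. Without the spleen with kidney markers 4 probes reached an adjusted p under 0.05 for 15:00, among them those of *Aurka* (difference -1.28, SE 0.25), *Mcm6* (-1.17, SE 0.23) and *Tk1* (-1.29, SE 0.25), all at an adjusted p of 0.0466, above the threshold of 0.01.

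With 1 probe a gene, the one above background on most arrays, the smallest p in the F test were those of *Tyms*, *Tk1* and *Mcm2*. *Tyms* stood at 9.27, 8.92, 8.83 and 9.91 in the saline spleens of 9:00, at 7.57, 8.0 and 8.80 at 12:00, and at 7.79, 7.33 and 8.82 at 15:00. At each later time all spleens were below all those of 9:00, in the closest cases narrowly. *Tyms* differed by -1.11 (SE 0.35, adjusted p = 0.672) at 12:00 and by -1.26 (SE 0.35, adjusted p = 0.364) at 15:00. *Tk1*, the thymidine kinase of dividing cells, stood at 9.90, 9.35, 9.93 and 10.54 at 9:00, at 8.65, 8.58 and 9.26 at 12:00, and at 8.55, 8.23 and 9.15 at 15:00. Its groups did not overlap either, with differences of -1.10 (SE 0.37) and -1.29 (SE 0.37, adjusted p = 0.364). *Mcm2*, another helicase subunit, stood at 9.56, 9.14, 9.74 and 10.34 at 9:00, at 8.50, 8.53 and 9.09 at 12:00, and at 8.62, 8.41 and 9.10 at 15:00. The margin was 0.05 or less here, and the differences were -0.99 (SE 0.32) at both times.

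No role held a gene that passed. The medians for 12:00 and 15:00 against 9:00 were -0.71 and -0.99 for 9 genes of DNA replication, -1.06 and -1.27 for 4 of nucleotide supply and -0.97 and -1.08 for 4 of S phase entry and transcription. They were -0.89 and -1.30 for 4 genes of mitotic entry, -0.83 and -1.05 for 4 of the spindle, -0.85 and -1.17 for 2 of cytokinesis and -0.81 and -0.96 for 3 of the centromere and passenger complex, and *Top2a* differed by -0.98 and -1.16. The 3 checkpoint and anaphase genes had the smallest medians, -0.46 and -0.77. The gene with the largest difference at 15:00 was *Cdc6*, which loads the helicase onto origins (-1.57, SE 0.51, adjusted p = 0.382), and the smallest was that of *Mcm7* (-0.56). Between 15:00 and 12:00 the median probe differed by -0.26, with 46 of 51 probes lower and none at an unadjusted p under 0.05.

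The main comparison of the study, 131I with saline at the same time, gave no regulated transcript of these genes in the spleen at any time, where 0% of all probes were called at 9:00, at 12:00 and at 15:00. At 9:00 all 51 probes were lower with 131I on average. The mean of the 34 genes was 8.49, 8.42, 8.77 and 8.65 with 131I, against 9.13, 8.78, 9.35 and 9.95 with saline, so that every 131I spleen of 9:00 lay below every saline spleen, by 0.01 at the closest. At 12:00 it was 7.09, 8.61, 8.94 and 8.80 with 131I, against 8.25, 8.29 and 8.91 with saline. At 15:00 it was 8.85, 8.58, 8.50 and 8.46 with 131I, against 8.36, 7.64 and 8.71 with saline. At 12:00 and 15:00 the groups overlapped.

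The saline spleens of 9:00 enter both this comparison and those of the times of day, so that these results are not independent of each other. Relative to them the median gene differed by -0.69 in 131I spleens of 9:00, by -0.83 in saline spleens of 12:00 and by -1.07 in saline spleens of 15:00 on the log2 scale. The 131I spleens of 9:00, with means between 8.42 and 8.77, lay within the range of the saline spleens of 12:00 and 15:00 (7.64 to 8.91).

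**Figure D3:**
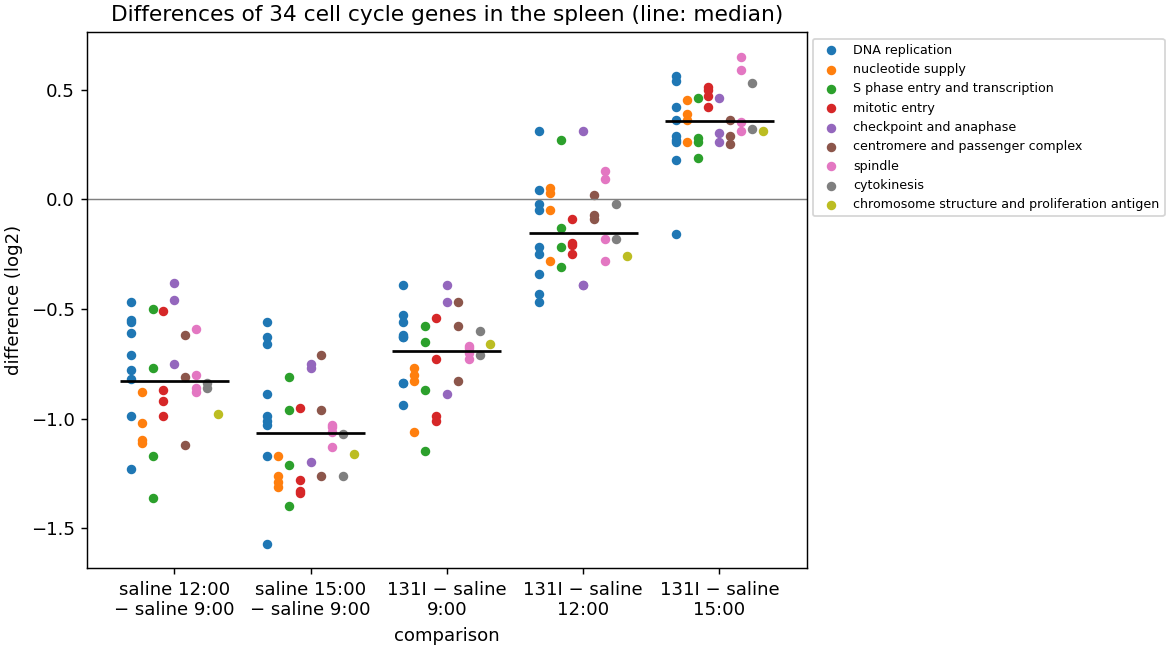
Log2 differences of the 34 genes in the spleen, coloured by role, for saline 12:00 and 15:00 against saline 9:00 and for 131I against saline at 9:00, at 12:00 and at 15:00, with the median as a line. All genes lie below 0 in the 3 comparisons with saline 9:00 (medians -0.83, -1.07 and -0.69), around 0 at 12:00 (median -0.15) and mostly above 0 at 15:00 (median 0.35), and no gene was called.

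At 9:00 the differences between 131I and saline ran from -1.15 to -0.39 on the log2 scale, with a median over all probes of 0.03. An unadjusted p under 0.05 was reached by 19 of 51 probes, all lower (2.65% of all probes), and the groups did not overlap in 19 probes (1.86% of all). The smallest adjusted p was 0.974. Without the spleen with kidney markers, a sample of another time that enters the shared fit, the count was 42 (4.47% of all) and the smallest adjusted p was 0.494. The count also moved with the spleens of 9:00 themselves, to 3 without saline replicate 4, 8 without 131I replicate 2, 12 without 131I replicate 1 or saline replicate 3, and 33 without saline replicate 2. At least 50 of 51 probes stayed lower throughout.

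With 1 probe a gene *Mcm2* had the smallest p at 9:00, and further probes of *Tk1* (difference -0.96, SE 0.29) and *Nusap1* (-0.81, SE 0.27) had smaller ones. *Mcm2* stood at 8.54, 8.87, 8.97 and 9.06 in the 131I spleens, against 9.56, 9.14, 9.74 and 10.34 in the saline spleens, and the groups did not overlap. The difference was -0.84 (SE 0.29, adjusted p = 0.974). The other replication and supply genes had like values. *Rrm1*, the large subunit of ribonucleotide reductase, stood at 9.31, 9.19, 9.68 and 9.50 with 131I, against 10.17, 9.60, 10.16 and 10.96 with saline (difference -0.80, SE 0.32), with an overlap of 1 pair. *Tyms* stood at 8.23, 8.54, 8.32 and 8.51 with 131I, against 9.27, 8.92, 8.83 and 9.91 with saline (difference -0.83, SE 0.32), with no overlap. The largest difference was that of *Ccne1*, cyclin E1 (-1.15, SE 0.50), and the medians of the roles lay between -0.86 (mitotic entry) and -0.47 (checkpoint and anaphase).

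At 12:00 the sign of the median depends on 1 spleen. The median gene differed by -0.15 with 131I, 14 of 51 probes were higher and 37 lower, and no probe reached an unadjusted p under 0.05. Without the spleen with kidney markers 44 were higher and 7 lower, with a median gene of 0.29, and without saline 12:00 replicate 3 28 were higher and 23 lower. With 1 probe a gene *Cdc20* had the smallest p. It stood at 8.38, 9.81, 9.84 and 9.58 with 131I, against 9.40, 9.91 and 10.07 with saline (difference -0.39, SE 0.30, adjusted p = 0.722), and its lowest value is that of the spleen with kidney markers, without which the difference was -0.05.

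At 15:00 the median gene was higher by 0.35 with 131I, with 48 of 51 probes higher. An unadjusted p under 0.05 was reached by 1 of them (1.28% of all probes), a further probe of *Mcm6* (difference 0.63, SE 0.27), and the smallest adjusted p was 1. Without the spleen with kidney markers 4 reached it (2.05% of all), with the same median. Without saline 15:00 replicate 2, the spleen with the mean of 7.64, 31 were higher and 20 lower, with a median of 0.05. With 1 probe a gene *Gmnn* had the smallest p at 15:00. It stood at 6.21, 6.00, 6.43 and 6.57 with 131I, against 5.68, 5.71 and 5.89 with saline, with no overlap (difference 0.54, SE 0.30, adjusted p = 1). Among the 34 genes only *Mcm7* was lower at 15:00 with 131I (difference -0.16).

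**Figure D4:**
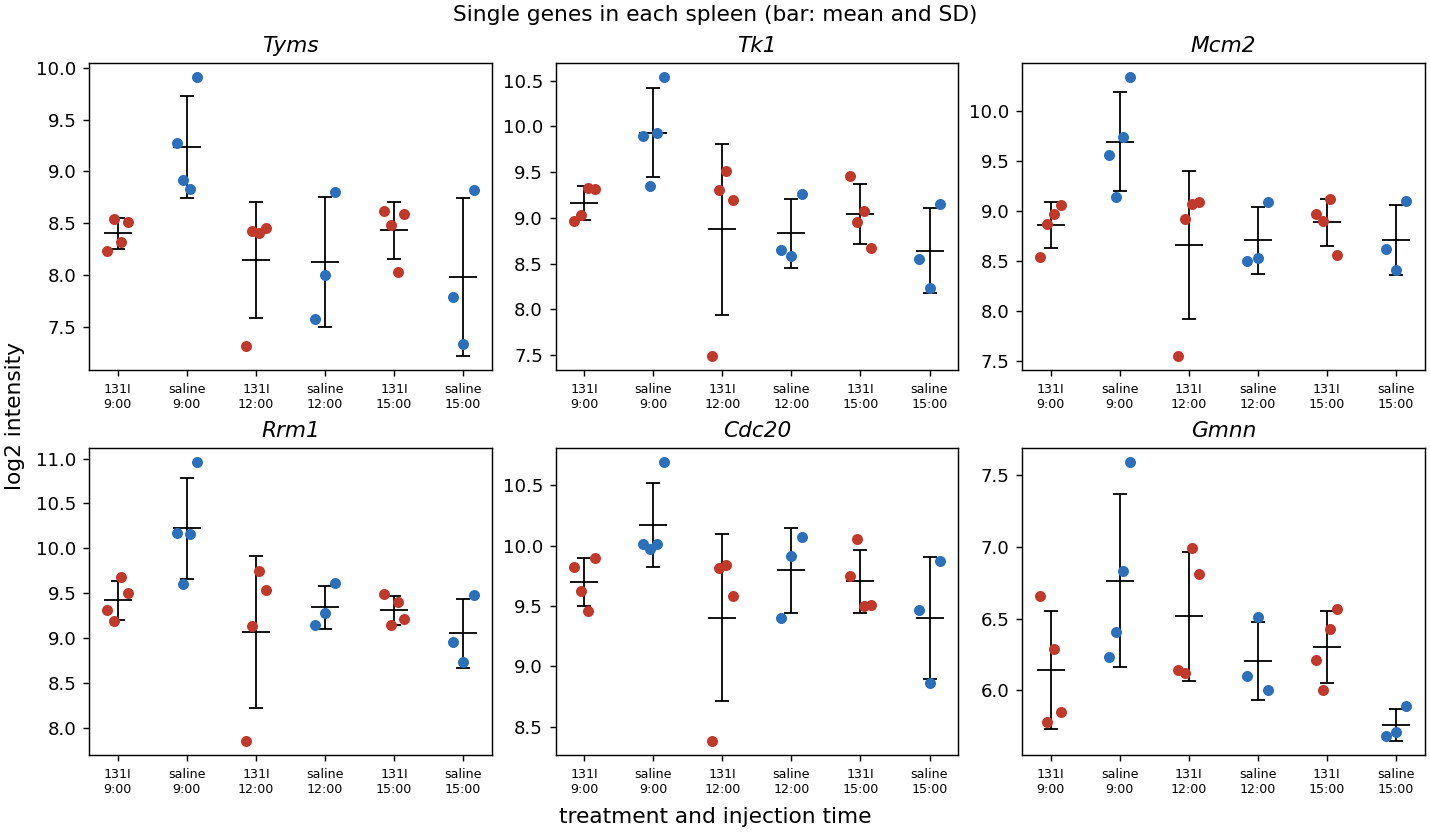
Log2 intensity of *Tyms*, *Tk1*, *Mcm2*, *Rrm1*, *Cdc20* and *Gmnn* in each spleen, for 131I (red) left of saline (blue) at 9:00, at 12:00 and at 15:00. The saline spleens of 9:00 hold the highest value of each gene, and 131I 12:00 replicate 1 holds the lowest of each but *Gmnn*.

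Over the mean of the 3 times the median probe differed by -0.16, with 47 of 51 probes lower, and 0% of all probes were called. This rests largely on 1 spleen, since without the spleen with kidney markers the median was -0.02, with 32 probes lower and 19 higher. With 1 probe a gene the smallest p were those of *Mcm7*, *Rrm1* and *Foxm1*. *Mcm7* stood at 7.30, 7.43, 8.24 and 7.72 with 131I against 8.18, 7.84, 8.10 and 8.72 with saline at 9:00. At 12:00 it stood at 5.74, 7.88, 7.03 and 7.46 with 131I against 7.01, 7.53 and 7.97, and at 15:00 at 7.83, 7.45, 7.63 and 7.06 with 131I against 7.47, 7.87 and 7.61. The groups overlapped at each time (mean difference -0.39, SE 0.21, adjusted p = 1, and -0.25 without the spleen with kidney markers). *Rrm1* differed by -0.27 (SE 0.19, adjusted p = 1), and by -0.14 without that spleen. *Foxm1*, the mitotic transcription factor, stood at 6.46, 6.56, 6.78 and 6.95 with 131I against 7.18, 6.87, 7.51 and 7.52 with saline at 9:00. It differed by -0.58 (SE 0.21) at 9:00 but by only -0.18 (SE 0.13, adjusted p = 1) over the 3 times, and by -0.11 without that spleen.

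Whether the response to 131I depends on the time of day was tested directly, by an F test of the interaction. No probe passed in the spleen (0% of all), and 5 of 51 probes of the genes had an unadjusted p under 0.05 (4.7% of all probes). This count was 36 without the spleen with kidney markers (6.93% of all, smallest adjusted p = 0.61) and 1 without saline 9:00 replicate 4. It was 17 without saline 15:00 replicate 3 and 14 without saline 9:00 replicate 2.

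The 34 genes varied together from spleen to spleen. Over the 22 spleens the median correlation between 2 of them was 0.86, against 0.06 between them and other probes, and 94.8% of their pairs had a correlation above 0.5, against 11.4% with other probes. Without the spleen with kidney markers the median was 0.81 over 21 spleens. *Birc5* was the most typical gene (median correlation 0.91 with the others) and *Gmnn* the least (0.52). These correlations share libraries and the differences between groups, and they are a description. In the lungs the median was 0.40 for 28 genes, in the kidney medulla 0.20, in the kidney cortex 0.11, in the liver 0.04 and in the thyroid -0.05. These values cannot be set against that of the spleen, because many of the tested genes were at background there. Above background on all arrays were 30 genes in the spleen, against 12 in the lungs, 8 in each kidney region and 5 each in liver and thyroid.

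Markers of blood cells also differed between the spleens, some in the direction of the genes and others against it. The mean over 12 markers of red cell precursors was 9.41, 9.17, 10.22 and 9.85 in the 131I spleens of 9:00, against 10.53, 9.55, 10.95 and 10.91 in the saline spleens of 9:00. It was 9.70, 8.53 and 10.30 in the saline spleens of 12:00 and 10.19, 8.37 and 10.18 in those of 15:00. Of the 12 markers 11 were lower with 131I at 9:00 (median -0.88), 11 were lower in saline spleens of 12:00 than of 9:00 (median -1.12) and 11 in those of 15:00 (median -0.98), none of them called. B cell markers ran the other way, with 10 of 10 higher in the same 3 comparisons (medians 0.35, 0.39 and 0.64), none called. Markers of neutrophil precursors were higher with 131I at 9:00 in 15 of 15 cases (median 0.67) and lower at 15:00 than at 9:00 in saline mice in 15 of 15 (median -0.96), against the direction of the genes in the first case and with it in the other. T cell markers were higher in 9 of 10 cases with 131I at 9:00 (median 0.25). The mean of 8 megakaryocyte markers was 8.20 to 9.72 with 131I at 9:00, against 8.85 to 10.02 with saline. That of 8 markers of splenic macrophages was 10.58 to 11.07, against 10.70 to 11.09. The part of these cell types in the levels of the genes was not tested.

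Cell cycle genes outside the list were read in the same fits. Of 72 such genes 51 were tested in the spleen, and none was called. With 131I at 9:00 45 of the 51 were lower, 15 of them at an unadjusted p under 0.05 (2.65% of all probes), with a median of -0.55, and the smallest p was that of *Mybl2*, the MuvB partner B-MYB (difference -1.21). At 15:00 42 of 51 were higher with 131I (median 0.25). Between saline spleens 46 were lower at 12:00 than at 9:00 (19 at an unadjusted p under 0.05, where 3.94% of all probes were, median -0.60), led by the CDK inhibitor *Cdkn2c* (-1.05), and 47 were lower at 15:00 (33 at an unadjusted p under 0.05, where 4.19% of all were, median -0.80), led by the kinetochore gene *Spc25* (-1.30). These counts moved with single spleens too. Without the spleen with kidney markers they were 25 for 131I at 9:00, 30 for 12:00 and 37 for 15:00, and without saline 9:00 replicate 4 they were 1, 4 and 22. Without saline 12:00 replicate 1 or 2 that for 12:00 was 5 or 6, without saline 15:00 replicate 2 that for 15:00 was 18, and that for 131I at 9:00 was between 7 and 10 without 131I 9:00 replicate 1, 2 or 4 or saline 9:00 replicate 3. Without saline 9:00 replicate 2 it was 23, and that for 12:00 was 29.

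Outside the spleen 3 gene and tissue pairs were called between 131I and saline. In the samples labelled thyroid 2 of 14 probes were called lower with 131I at 9:00, those of *Mcm2* and *Tyms*, where 12.3% of all probes were called. *Tyms* stood at 6.26, 5.67, 5.97 and 5.53 with 131I, against 6.59, 6.56, 6.65 and 6.54 with saline, with no overlap (difference -0.73, SE 0.19, adjusted p = 0.00916). Another probe of *Tyms* differed by 0.36 the other way (adjusted p = 0.24), with no saline sample of 9:00 above background. *Mcm2* stood at 4.33, 4.47, 4.38 and 4.77 with 131I, against 5.0, 5.12, 5.33 and 5.20 with saline (difference -0.68, SE 0.16, adjusted p = 0.00492). It was above background in 0 of 4 samples with 131I and in 3 of 4 with saline, so that it was at least 1.12-fold lower with 131I. Without background correction, and in the deposited normalized values, neither gene was called.

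*Cenpa*, a histone of the centromere, differed by 1.11 in the thyroid at 9:00 without passing (adjusted p = 0.0291), and was above background in all samples of both groups. The thyroid samples of this time differed in tissue markers. The mean of the salivary markers was 5.25 to 5.45 with 131I, against 12.05 to 12.29 with saline, and that of the muscle markers was 5.98, 13.33, 13.33 and 13.52 with 131I, against 5.13 to 5.79 with saline. The part of these tissues in the results of the thyroid was not tested. At 12:00, at 15:00 and over the mean of 3 times no probe was called in the thyroid (0% of all).

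In saline mice *Mcm2* was also called lower in the thyroid at 15:00 than at 9:00 (11.6% of all probes). It stood at 4.29, 4.59 and 4.26 at 15:00, against 5.0, 5.12, 5.33 and 5.20 at 9:00 (difference -0.78, SE 0.17, adjusted p = 0.00474), which are the same saline samples as above. No sample of 15:00 was above background, and no fold-change is given, because the bound is under 1. The tissue markers differed here too. The mean of the salivary markers was 5.16, 5.14 and 8.50 in the saline samples of 15:00, against 12.05 to 12.29 in those of 9:00, and that of the muscle markers was 11.83, 5.60 and 5.86 at 15:00, against 5.13 to 5.79 at 9:00. In those of 12:00 the salivary markers stood at 5.10, 5.58 and 11.99. Their part in the results of *Mcm2* was not tested. *Mcm2* was the only gene of the 13 tested to pass the F test over the times in the thyroid (adjusted p = 0.00785, with 8.46% of all probes). It did not pass the test of the time dependence of the response (adjusted p = 0.0218, 0% of all probes).

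In the kidney medulla 1 of 24 probes of the genes was called with 131I at 12:00, where 4.25% of all probes were called in either direction. This was the probe of *Mcm4*, a helicase subunit, which was lower. It stood at 8.86, 8.68, 8.51 and 8.49 with 131I, against 9.19, 9.44 and 9.14 with saline, with no overlap (difference -0.62, SE 0.15, adjusted p = 0.00823, 1.53-fold). This is close to both thresholds, and the call was lost when any of 11 single samples was left out (difference -0.69 to -0.53 over all 21). Markers of the kidney regions differed in the same comparison. The mean over 10 markers of the medullary nephron and papilla was 8.23 to 9.58 with 131I, against 10.22 to 11.02 with saline, with 10 of 10 lower and 3 called, and that over 9 markers of the proximal tubule was 10.99 to 11.12 with 131I, against 10.37 to 10.77 with saline, with 6 of 9 higher and none called. In saline mice, with all arrays normalized together, *Mcm4* averaged 8.87 in the kidney medulla and 8.29 in the kidney cortex. The part of the tissue regions in the result of *Mcm4* was not tested. Over the mean of 3 times *Mcm4* differed by -0.37 (SE 0.08, adjusted p = 0.00605), under the fold-change of 1.5, and 2.77% of all probes were called. No gene was called in the kidney medulla at 9:00 or 15:00 (0% of all), by time of day (0.106%) or in the time dependence of the response (0%).

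In the liver at 12:00 none of the genes was called with 131I, as against 1.45% of all probes, and the helicase genes *Mcm4* and *Mcm5* had the smallest p. *Mcm4* stood at 7.30, 7.50, 7.74 and 7.66 with 131I, against 8.78, 8.03 and 8.42 with saline, with no overlap (difference -0.86, SE 0.22, adjusted p = 0.0313). *Mcm5* stood at 5.48, 5.87, 5.06 and 5.74 with 131I, against 6.97, 5.84 and 6.94 with saline (difference -1.05, adjusted p = 0.191), and overlapped in 1 pair. In all 14 of 15 probes were lower, with a median of -0.39 (-0.15 without background correction, -0.03 with no filter on dim probes), and the mean over the genes was 6.02 to 6.19 with 131I, against 6.33 to 6.66 with saline. Hepatocyte markers averaged 12.32 to 12.52 with 131I, against 11.47 to 12.30 with saline (8 of 10 higher, 1 called), and markers of splenic macrophages 8.35 to 8.73, against 7.60 to 8.56 (7 of 8 higher, none called). Their part was not tested. Outside the list, *Spc25* differed by -1.30 in this comparison (adjusted p = 0.0162). The CDK inhibitor *Cdkn1a* was called lower in saline livers at 12:00 than at 9:00 (-1.46) and at 15:00 than at 9:00 (-2.21, adjusted p = 5.55e-05). No gene of the list was called in the liver at 9:00 (0% of all), 15:00 (0.0259%), over the 3 times (0.147%), by time of day (4.71%) or in the time dependence of the response (0.545%).

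In the lungs 32 of 34 probes were higher with 131I at 9:00 (median 0.33), 6 at an unadjusted p under 0.05 (4.88% of all probes), and none was called. Without the lung sample that carries kidney markers, a saline sample of 9:00, 28 were higher, 2 at an unadjusted p under 0.05 (3.91% of all), with a median of 0.20. No gene was called in the lungs in any comparison, where 0% of all probes were called with 131I and 0.0142% by time of day. In the kidney cortex no gene was called either, with 0.141% of all probes called at 12:00, 0.243% by time of day and 0.00783% in the time dependence of the response. The median gene differed there by 0.11, 0.04 and -0.12 at 9:00, at 12:00 and at 15:00.

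**Figure D5:**
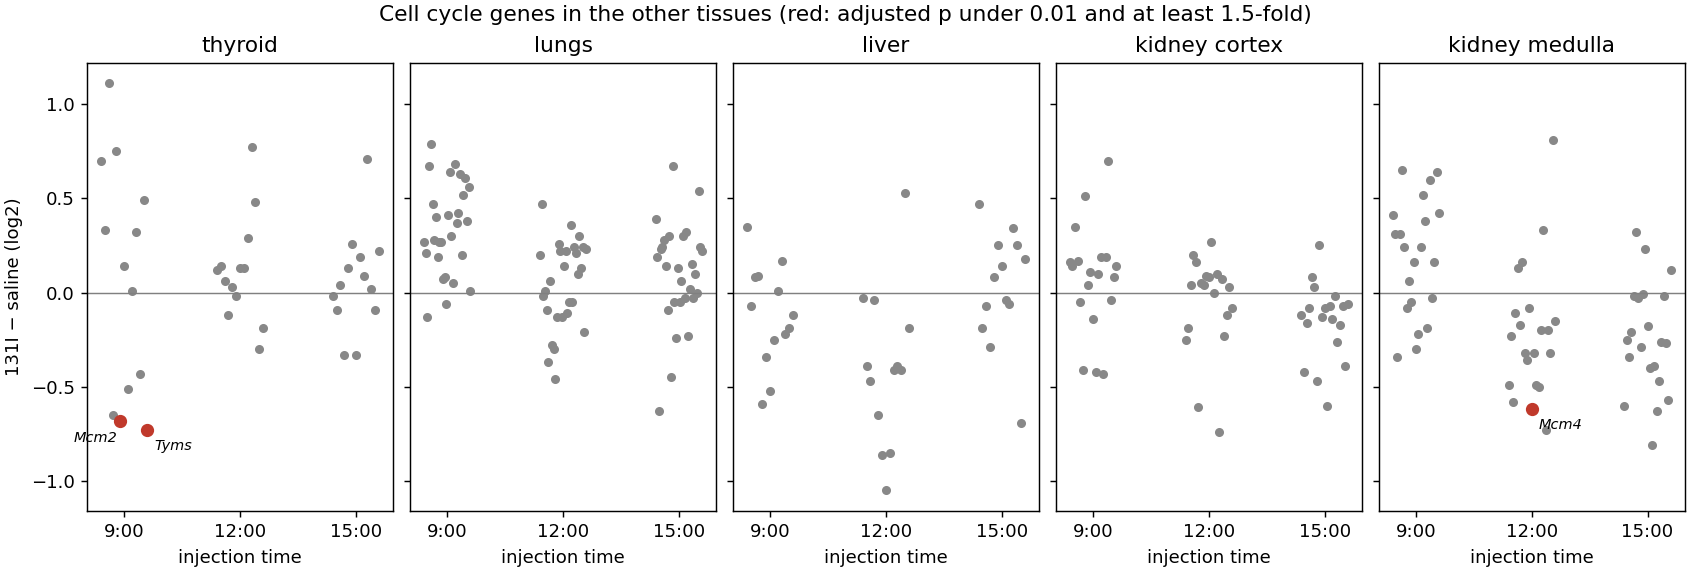
Log2 differences of the tested genes between 131I and saline at 9:00, at 12:00 and at 15:00 in the thyroid, lungs, liver, kidney cortex and kidney medulla, 1 point a gene. Red points are the called genes, *Mcm2* and *Tyms* in the thyroid at 9:00 (-0.68 and -0.73) and *Mcm4* in the kidney medulla at 12:00 (-0.62), and the medians run between -0.41 (liver at 12:00) and 0.33 (lungs at 9:00).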

How the data were processed

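The deposited non-normalized signal intensities are bead averages per probe. The detection p-values deposited with them set a probe against the negative controls of its array. The authors also deposited normalized intensities, on a linear scale, which they quantile normalized over all 136 arrays after preprocessing in BASE. Here the raw signals received a normexp correction with limma's nec (offset 16), then quantile normalization within each tissue (over all arrays for spleen against other tissues) and a log2 transform. R 4.3.3, limma 3.58.1 and data.table (version 1.17.8) were used. Each of the 6 repeat arrays entered as a mean with the sample it repeats, and 3 of them correlated best with that sample. A probe entered the tests of a tissue if its detection p was under 0.01 on 3 or more of its arrays.

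All 6 groups of a tissue shared 1 limma model (eBayes with an intensity trend). The F tests used the adjusted p alone. Levels are compared within a probe only. Where a gene was at background in every sample of a group, its fold-change is a lower bound, set from the lowest signal above background on each array. With only a few samples of a group above background the fold-change is given as it stands, though it rests mostly on background values. The number of arrays, 3 or 4 in a group, limits the precision. The replicates are mice, and p-values measure the spread between them.

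For a gene with several probes the probe above background on most arrays stands for it. Genes given in each sample are those with the smallest p in a spleen comparison, the called ones elsewhere and, for spleen against other tissues, the largest and the smallest mean difference of each role. The genes and lists were chosen with earlier results of these data known. The fits were tested on simulated data. The alternatives tried were median scaling, no filter, no background correction, the deposited values, repeat arrays left out, a looser threshold, a fit of 2 groups, a replicate block, 131I mice for spleen against other tissues, and each replicate left out. Leaving out both samples with kidney markers before normalization was added after the data were seen. Probe symbols come from the platform annotation, updated by Entrez ID through RefSeq.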

Additional observations from a re-analysis of the deposited data

Results flagged for a closer look

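Over the 6 tissues, 63 sets of 4 samples of a group were tested for a value far from the others (the mean over the genes and the named genes), and 4 values, all of the spleen, stood out by Dixon's criterion, and chance gives about 1 in 20. Of these 4 values 3 belong to the spleen labelled 131I 12:00 replicate 1, which carries kidney markers. In it *Mcm2* stood at 7.55 on the log2 scale, with the nearest of the other 131I spleens of 12:00 at 8.92, *Tyms* at 7.31 with the nearest at 8.40, and *Tk1* at 7.49 with the nearest at 9.20. The other value is *Cdc20* in saline 9:00 replicate 4, at 10.69 with the nearest at 10.01, and this is also the spleen with the highest mean over the 34 genes (9.95).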

How the results depend on the processing

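Of 41 counts of called probes of the genes, 34 stayed within 1.5 times their main value under all alternatives, those of spleen against the other tissues and all of the spleen included. Most of the 41 counts were 0 in the main setting, and for them this means only that 0 stayed 0. Apart from spleen against the other tissues, every count above 0 moved, as given below. None of the named genes changed direction. Medians near 0 changed sign, beside the spleen at 12:00 those of 131I against saline in the thyroid at 9:00 (-0.01 to 0.43), the lungs at 12:00 (-0.01 to 0.08) and the liver at 15:00 (-0.02 to 0.14). In the thyroid at 9:00 the count of 2 became 0 in the deposited values or with no background correction, 1 under median scaling, no filter, a fit of 2 groups or a replicate block, 6 at an adjusted p under 0.05 with no fold threshold, and 0 to 2 with a replicate left out. *Mcm2* of this comparison was -0.39 in the deposited values and -0.23 when no background was corrected, under the fold threshold in both. Its call was lost without 131I replicate 1, 2 or 3 or saline replicate 3 or 4 of 9:00 (adjusted p between 0.0129 and 0.0222), and that of *Tyms* was lost without any of 17 of the 21 samples (difference -0.86 to -0.62). By time of day in the thyroid the count of 1 became 0 under median scaling, the replicate block or no background correction, and ran over 0 to 1 when single replicates were left out. The time dependence gave 1 at the looser threshold in place of 0, and 1 without 131I 15:00 replicate 4 (0 to 1 over single replicates left out). In the kidney medulla at 12:00 the count of 1 became 0 under median scaling, no background correction, no filter, a fit of 2 groups, repeat arrays left out or the deposited values, 2 at the looser threshold, and 0 to 1 over single replicates left out, the adjusted p of *Mcm4* lying between 0.0066 and 0.0347 over the alternatives that left no replicate out. At the looser threshold 1 probe in place of 0 was called in the liver at 12:00 and in the kidney medulla at 9:00 and over the mean of 3 times. The causes of these changes were not tested, beyond the thresholds and sample numbers that the settings themselves alter.

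The sizes depend on the background correction. Without it, or with the deposited values, the median difference of the probes between the spleen and another tissue was as low as 1.31 to 1.49, against 2.52 to 2.82 in the main setting, while the counts of called probes held (45 to 49 with a replicate left out). *Gmnn* and *Ccne2* lost calls there through the fold threshold. In the spleen the median difference of 131I against saline lay between -0.70 and -0.51 at 9:00, between -0.25 and 0.25 at 12:00 and between 0.23 and 0.48 at 15:00 over the alternatives that left no replicate out. Replicate numbers did not pair the samples, since same-numbered 131I and saline samples correlated in their deviations by -0.33 to 0.40 in the spleen, with 4 of 10 pairs above 0.1, and the replicate block left 39 of 41 counts the same. For spleen against the other tissues the block gave a correlation of 0.044.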
